A study of Rattus norvegicus with 12 samples.

Results

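Expression of 10 genes that mark macrophages was read in the hearts of young adult rats: Tyrobp, Cd68, Adgre1, Csf1r, Cd163, Mrc1, Lyz2, C1qa, C1qb and C1qc. They were taken by symbol from the deposited table, which held all 10 members among its 17322 gene models, and all 10 were among the 12980 models with enough reads to be tested. The tissue was the whole heart, taken at 15 weeks of age from rats of the outbred Sprague Dawley stock. In the GDM groups the dam had been given a high fat and sucrose (HFS) diet to induce gestational diabetes mellitus, starting before mating and lasting through pregnancy and lactation, whereas the diet of Lean dams was low in fat (LF). At 3 weeks the weaned offspring of either kind of dam were allotted at random to LF or HFS, which gave 4 groups of 3 libraries, named by dam and then by offspring diet: Lean-LF and Lean-HFS, GDM-LF and GDM-HFS. The dam's diabetes and the dam's diet go together in this model, so these cannot be told apart. The study's plan named 6 animals per group, and the others were not analysed here. No label ties an animal to a litter, so the p-values speak for these 12 hearts and their spread, which could be partly technical or shared by littermates.

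Macrophages are among the most common immune cells of the healthy heart. They engulf dying cells and debris, hold complement and scavenger receptors, depend for survival on signals through the colony stimulating factor receptor CSF1R, and are renewed in part by local division and in part from blood monocytes. The genes read here cover those roles. Tyrobp encodes the adaptor (DAP12) that carries activating signals from receptors such as TREM2, Cd68 a glycoprotein of the lysosome, and Adgre1 the adhesion receptor known as F4/80 in the mouse. Csf1r encodes the receptor for CSF1 and IL-34. Cd163 and Mrc1 encode scavenger receptors, for haptoglobin bound to haemoglobin and for mannose-bearing glycoproteins, and are typical of resident macrophages. Lyz2 encodes lysozyme, and C1qa, C1qb and C1qc encode the 3 chains of C1q, the recognition unit of the classical complement pathway. In whole hearts, fewer macrophages and less RNA per macrophage cannot be told apart.

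Promoter sequence was examined because many myeloid genes carry a purine-rich box for the ETS factor PU.1, the product of Spi1. Promoters were available for 8 of the 10 genes in a RefSeq table of the build GRCr8 (Cd68, Adgre1, Csf1r, Cd163, Mrc1, Lyz2, C1qa and C1qb). The motif GAGGAA or its reverse complement TTCCTC was searched in the 250 bases before each annotated start, on both strands. It was present in 6 of 8 members (C1qb, Lyz2, Adgre1, Cd68, Mrc1 and Csf1r), against 23.3% of 33469 promoters of the same length. The E-box CACGTG, which reads the same on both strands, was in 0 of 8 (5.59% of all promoters), and the AP-1 motif TGACTCA or TGAGTCA was in 1 of 8, Cd68 (4.05% of all promoters). These are matches of letters and not shown to be binding sites. Shown here are Cd68 and Adgre1, which had the largest differences between dams among the members with a promoter in the table, Lyz2, whose motif is close to the start, and Mrc1, which holds the motif at a pair of places. Capitals mark the GAGGAA or TTCCTC match, and each sequence runs 5′ to 3′ along the gene's strand.
Cd68: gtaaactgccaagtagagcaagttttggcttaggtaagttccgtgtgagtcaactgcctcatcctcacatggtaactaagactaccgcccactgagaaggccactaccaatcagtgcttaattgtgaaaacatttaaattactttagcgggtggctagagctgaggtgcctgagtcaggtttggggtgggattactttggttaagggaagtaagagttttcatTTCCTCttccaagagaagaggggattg
Adgre1: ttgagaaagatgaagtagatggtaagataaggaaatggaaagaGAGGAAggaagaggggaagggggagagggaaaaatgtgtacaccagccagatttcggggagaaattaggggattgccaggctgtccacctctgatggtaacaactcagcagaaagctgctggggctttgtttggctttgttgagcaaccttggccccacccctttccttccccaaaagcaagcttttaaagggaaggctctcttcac
Lyz2: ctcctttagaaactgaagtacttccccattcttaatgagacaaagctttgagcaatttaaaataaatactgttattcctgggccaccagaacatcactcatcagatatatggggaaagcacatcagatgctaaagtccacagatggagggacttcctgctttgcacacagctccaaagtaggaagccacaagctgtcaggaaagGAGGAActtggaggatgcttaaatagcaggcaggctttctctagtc
Mrc1: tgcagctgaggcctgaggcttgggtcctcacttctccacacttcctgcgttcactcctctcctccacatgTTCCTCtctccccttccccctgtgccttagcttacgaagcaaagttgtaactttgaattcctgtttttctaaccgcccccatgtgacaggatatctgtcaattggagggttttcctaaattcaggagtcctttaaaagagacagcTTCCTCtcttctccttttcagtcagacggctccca

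The Cd68 window is chr10:54882442-54882691 on the minus strand of GRCr8, and its match begins at position -27, where -1 is the last base before the start. Adgre1 has its window at chr9:2329190-2329439 on the plus strand, with the match at -207. For Lyz2 the window is chr7:54798012-54798261 on the minus strand, with the match at -46. The Mrc1 window, chr17:82157475-82157724 on the plus strand, has matches at -180 and -35.

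In the deposited table the gene models carry coordinates of Rnor_6.0 and span exons and introns together. The C1q genes lie side by side on the minus strand of chromosome 5, with C1qb at 155246444 to 155251993, C1qc at 155255025 to 155258351 and C1qa at 155261254 to 155264101, so that 3031 and 2902 bases separate them. Tyrobp spans chromosome 1, 88875449 to 88879299, on the plus strand, 127 bases from Hcst, which encodes the related adaptor DAP10 on the minus strand. Cd68 spans chromosome 10, 56268726 to 56270605, on the minus strand, 651 bases from the translation factor gene Eif4a1. Adgre1 lies on chromosome 9 (9431888 to 9585852, minus), Csf1r on 18 (56431891 to 56458300, plus), Cd163 on 4 (156752093 to 156785467, plus), Mrc1 on 17 (81352700 to 81433743, plus) and Lyz2 on 7 (60335968 to 60341264, minus). The Mrc1 model contains that of the microRNA Mir511, which had 0 or 1 read in each library. The neighbour Hcst had 2 to 14 reads per library, and Eif4a1 was at a log2 difference of -0.04 ± 0.06 (SE) between GDM and Lean hearts.

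Values are normalised reads of a gene model after scaling between libraries, and are not divided by length, so levels are compared between libraries within a gene and not between genes. The depth, leaving out ribosomal RNA models, was 9172734 to 14418970 reads per library. Each of the 10 genes was detected in all 12 libraries, from 38 reads at the lowest (Cd68) to 1945 at the highest (Lyz2). Genes of other leukocytes ranged from near 0 reads to clear detection, and these reads do not rank cell types, since models differ in length. The neutrophil gene S100a8 had 0 to 4 reads per library and the T cell gene Cd3d 0 to 9, but the T cell kinase gene Lck had 14 to 66, the NK cell gene Klrd1 28 to 97, the mast cell gene Cpa3 23 to 72 and the dendritic cell gene Clec9a 202 to 356. Cd4, which T cells and, in the rat, macrophages carry, had 201 to 537. The inflammatory cytokine gene Tnf and the alveolar-type scavenger receptor gene Marco had 0 reads in every library. Of the other genes of resident macrophages, Lyve1 (77.5 to 167 scaled reads) and Folr2 (7.06 to 24.5) were detected in every library, and Trem2 was not (0 to 16.1).

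One library stood apart before any comparison was made. Lean-HFS 2 was the highest of the 12 libraries for all 10 genes, and the sum of the 10 was 1707 there against 787 to 1021 in the other 11. Relative to the median of those 11 it was 2.72-fold for Lyz2, 2.08-fold for Cd68 and 1.83-fold for C1qb, down to 1.46-fold for Adgre1. The same library had the lowest summed cardiomyocyte markers (198130 against 230610 to 299240 elsewhere) and the highest summed fibroblast markers (15516 against 10008 to 14071), and the part of this make-up in the macrophage values was not tested. How many of all tested genes were also highest in this library was not counted. The counts and medians of the 10 genes in each comparison that uses it are therefore given with and without it. At the other end, GDM-HFS 3 was the lowest library for 6 of the 10 genes.

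**Figure D1:**
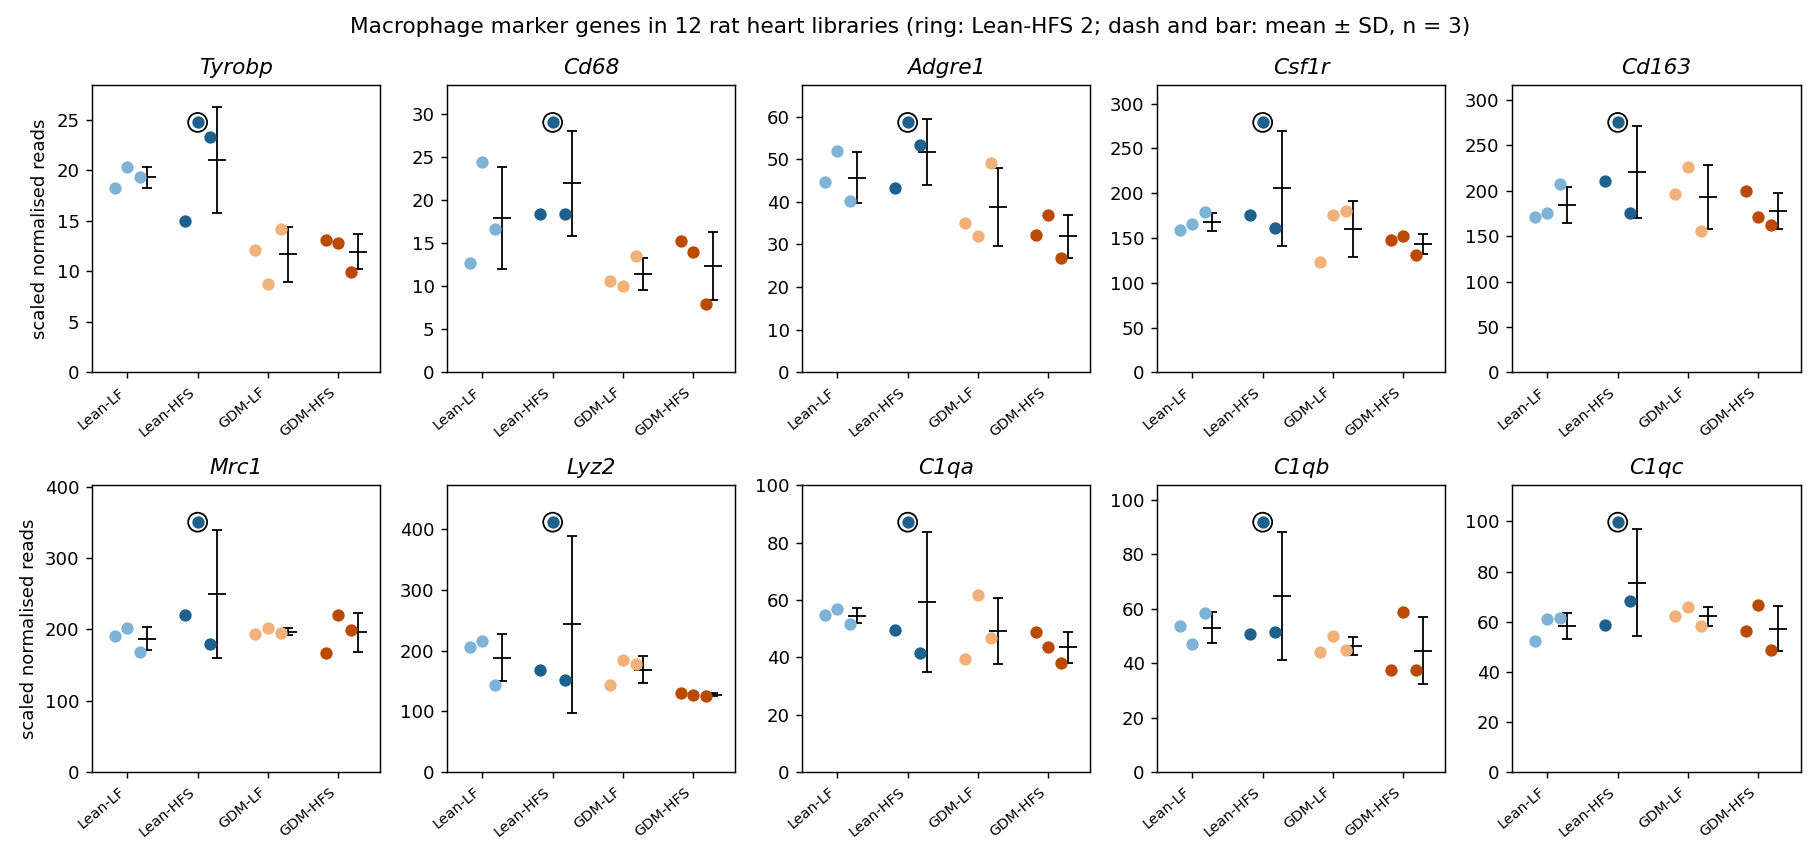
Scaled normalised reads (y axis, from 0) of the 10 macrophage marker genes by group (x axis), with 1 point per library and a dash and bar for the mean ± SD of 3 libraries. The ringed library Lean-HFS 2 is the highest for every gene, and for Tyrobp all 6 Lean libraries (15.0 to 24.8) sit above all 6 GDM libraries (8.78 to 14.2).

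The central question was whether these genes differed between hearts of GDM and of Lean offspring. Averaged over both diets, the log2 difference of GDM minus Lean was below 0 for all 10 genes (49.6% of all tested genes) and largest for Tyrobp, Cd68 and Adgre1, but none passed the test over all genes. By limma, 0 of the 10 genes were called at a Benjamini-Hochberg adjusted p under 0.05, where 8 of 12980 genes (0.0616%) were called. At an unadjusted p under 0.05, 6 of the 10 were lower in GDM hearts, against 5.48% of all tested genes, and none was higher. The median log2 difference of the 10 was -0.32, and that of all tested genes was 0.0015. Without Lean-HFS 2, 9 of 10 were below 0 (49.5% of all genes), 4 of 10 had an unadjusted p under 0.05 (5.52% of all genes) and the median was -0.19.

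Tyrobp, the signalling adaptor, separated the dams in scaled values. Its scaled reads were 18.2, 20.4 and 19.4 in Lean-LF and 15.0, 24.8 and 23.3 in Lean-HFS hearts. The GDM-LF hearts had 12.1, 8.78 and 14.2, and the GDM-HFS hearts 13.1, 12.8 and 9.97. After scaling, all 6 GDM libraries lay below all 6 Lean libraries, the closest being GDM-LF 3 and Lean-HFS 1. Such complete separation of scaled values in the lower direction was found for 0.401% of all tested genes and for no other member. It depends on the scaling: left as deposited, GDM-LF 3 was above Lean-HFS 1, so the dams overlapped. The mean of the Lean hearts was 20.2 ± 3.52 and that of the GDM hearts 11.8 ± 2.04 (SD, n = 6 each). The fitted log2 difference was -0.77 ± 0.17 (SE; limma unadjusted p = 0.000497, adjusted p = 0.126). This is a level of 0.588 of that in Lean hearts, read from 41 to 117 reads per library. The difference was -0.75 in LF and -0.79 in HFS offspring, each ± 0.24, and -0.70 ± 0.18 on average without Lean-HFS 2. Left as deposited, the difference averaged over diets was -0.66 ± 0.20 (limma unadjusted p = 0.00426, adjusted p = 0.208). Count models differed on Tyrobp: edgeR on the recovered reads gave an adjusted p of 0.124, and DESeq2, which called 154 genes (1.19% of those tested), gave 0.00672. Both models took each recovered read as separate, and it is not stated whether both reads of a pair were counted. Among small recovered counts, 67.8 to 73.6% per library were even, so both reads of many pairs appear to have been counted. Reads of a pair are not independent, so the p-values of both models may be too small.

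Cd68, of the lysosome, was lower in GDM hearts by nearly as much but with more spread. Lean-LF hearts had 12.7, 24.4 and 16.6 and Lean-HFS hearts 18.4, 29.0 and 18.4 scaled reads. Those of GDM-LF had 10.6, 10.1 and 13.5 and those of GDM-HFS 15.2, 13.97 and 7.89. Only the lowest Lean library, Lean-LF 1, fell within the GDM range. The log2 difference was -0.72 ± 0.21 (limma unadjusted p = 0.00461, adjusted p = 0.242), and it was -0.61 ± 0.22 without Lean-HFS 2. Lean hearts averaged 19.9 ± 5.84 and GDM hearts 11.9 ± 2.79 (SD, n = 6 each).

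Adgre1, the F4/80 receptor, followed with a smaller difference. Lean-LF hearts had 44.7, 51.97 and 40.1 and Lean-HFS hearts 43.2, 58.6 and 53.3. Values in GDM-LF were 35.1, 31.9 and 49.2 and in GDM-HFS 32.1, 36.9 and 26.8. GDM-LF 3 was the one GDM library inside the Lean range, and the other 5 were below every Lean library. The log2 difference was -0.47 ± 0.13 (limma unadjusted p = 0.00313, adjusted p = 0.229) and -0.43 ± 0.14 without Lean-HFS 2.

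For Csf1r, the growth factor receptor, and Lyz2, lysozyme, the difference was smaller once Lean-HFS 2 was left out. Csf1r was at 159, 166 and 179 in Lean-LF and at 176, 279 and 161 in Lean-HFS hearts. It was at 124, 176 and 179.6 in GDM-LF and at 147, 152 and 131 in GDM-HFS hearts. The log2 difference of Csf1r was -0.28 ± 0.13 (limma unadjusted p = 0.0459, adjusted p = 0.436), and -0.16 ± 0.10 without Lean-HFS 2 (unadjusted p = 0.116). For Lyz2 the Lean-LF values were 206, 216 and 144 and the Lean-HFS values 169, 412 and 151. Its GDM-LF values were 144, 185 and 179 and its GDM-HFS values 131, 127 and 125, which is the smallest SD relative to the mean of any group of 3 among the members. Lyz2 had a log2 difference of -0.46 ± 0.20 (limma adjusted p = 0.415), which was -0.23 ± 0.11 without Lean-HFS 2 (unadjusted p = 0.0474). Lysozyme has a close copy in the rat, Lyc2, that could share reads with Lyz2; the Lyc2 model had 0 to 8 reads per library.

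The scavenger receptors differed least. Cd163 ranged from 171 to 275 with a median of 191.5 in the 6 Lean hearts, and from 156 to 227 with a median of 184 in the 6 GDM hearts. Mrc1 ranged from 169 to 350.2 with a median of 196 in Lean hearts, and from 166 to 221 with a median of 197 in GDM hearts. For both genes the Lean and GDM ranges overlapped, with Lean-HFS 2 as the one library far above the rest. The log2 differences were -0.12 ± 0.12 for Cd163 (limma adjusted p = 0.748) and -0.11 ± 0.13 for Mrc1 (limma adjusted p = 0.792). Without Lean-HFS 2 they were -0.03 ± 0.10 and 0.02 ± 0.08, so the sign of Mrc1 turned.

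Complement C1q gave intermediate values. C1qa had a median of 53.3 in Lean hearts (41.4 to 87.2) and 45.1 in GDM hearts (38.01 to 61.9). C1qb had 52.6 (47.1 to 91.8) and 44.4 (37.4 to 58.8), and C1qc 61.2 (52.5 to 99.7) and 60.3 (48.8 to 66.5). All 3 overlapped broadly between dams. The log2 differences were -0.27 ± 0.16, -0.35 ± 0.16 and -0.14 ± 0.12 (limma adjusted p = 0.558, 0.429 and 0.718), and -0.12, -0.21 and -0.03 without Lean-HFS 2. Since the protein is built from equal parts of the A, B and C chains, each gene's share of the summed C1q reads was also taken, without regard to gene length. C1qa made up 25.6 to 34.8% of the sum over the 12 libraries, C1qb 26.3 to 34.8% and C1qc 32.6 to 42.7%. The mean share of C1qc was 36.7 ± 3.17% in Lean hearts and 39.5 ± 1.81% in GDM hearts (SD, n = 6 each). That of C1qb was 32.1 ± 1.94% and 29.9 ± 2.84%, and that of C1qa 31.2 ± 3.20% and 30.6 ± 3.64%. Each difference was within the larger SD of the pair, but for C1qc and C1qb it was beyond the smaller. The shares overlapped between dams and were not tested.

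**Figure D2:**
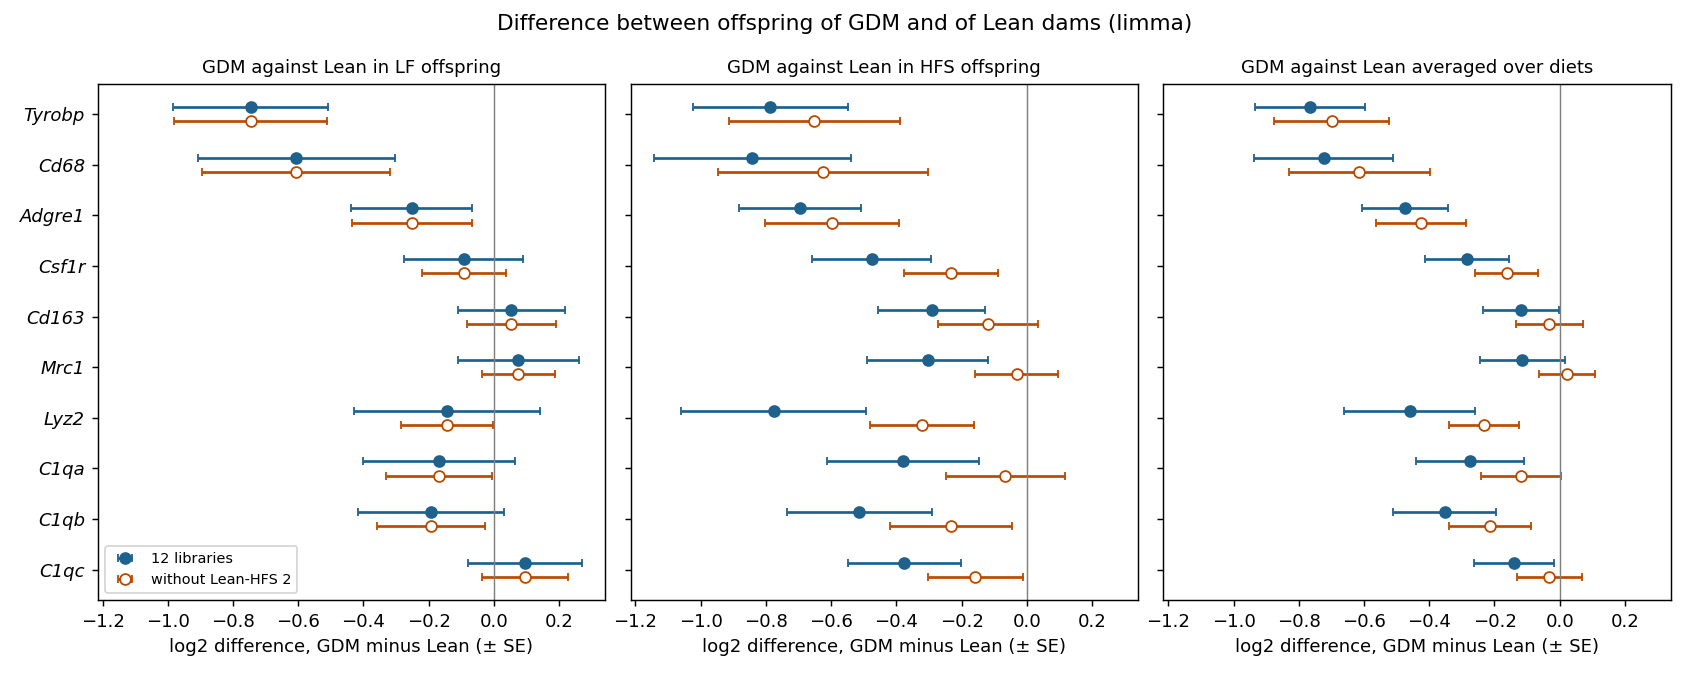
Fitted log2 difference of GDM minus Lean (x axis) with its standard error for each gene (y axis), in LF offspring, in HFS offspring and averaged over diets. Filled points use 12 libraries and open points leave out Lean-HFS 2; Tyrobp, Cd68 and Adgre1 stay between -0.43 and -0.77 on average, and Csf1r, Lyz2 and C1qa to C1qc move towards 0.

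The balance between genes was read by setting Tyrobp, Cd68 and Adgre1 against Cd163 in the same library. These 3 had the largest differences between dams and Cd163 one of the smallest, so the ratios restate those differences and are not separate evidence. Tyrobp reads came to 7.10 to 13.3% of those of Cd163 in Lean hearts (median 10.01) and to 3.88 to 9.10% in GDM hearts (median 6.35). Cd68 came to 7.44 to 13.9% (median 9.60) and 4.44 to 8.66% (median 6.52), and Adgre1 to 19.3 to 30.5% (median 23.8) and 14.1 to 31.6% (median 17.1). These are ratios of reads from models of unequal length and bear only on the comparison between libraries. The Lean and GDM ranges of all 3 ratios overlapped, and the ratios were not tested. In Lean-HFS 2 the Tyrobp ratio was 8.99%, inside the range of the other Lean hearts.

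Within each diet the counts differed. In HFS offspring, 10 of 10 genes were below 0 (49.1% of all genes) with a median log2 difference of -0.49, and 7 of 10 had an unadjusted p under 0.05 and were lower, against 4.96% of all genes. Limma called 2 genes in all (0.0154%) and 0 of the 10. Tyrobp, Cd68, Adgre1, Csf1r and Lyz2, 5 of the 10, had all 3 GDM-HFS libraries below all 3 Lean-HFS libraries, which held for 7.19% of all genes. Without Lean-HFS 2 the count at an unadjusted p under 0.05 dropped to 2 of 10 (3.69% of all genes), Tyrobp and Adgre1, and the median to -0.23. Markers of other cells differed in the same comparison. Endothelial markers had 11 of 11 below 0 and 4 lower at that level (Tie1, Egfl7, Cdh5 and Pecam1), as they had without Lean-HFS 2, and their sum was 4231 to 4548 in GDM-HFS and 4729 to 5081 in Lean-HFS hearts. Erythroid markers had 9 of 10 below 0 and 4 lower, also with and without it. The part of either in the macrophage values was not tested. In LF offspring, 7 of 10 were below 0 (50.4% of all genes) with a median of -0.16, and 1 of 10, Tyrobp, had an unadjusted p under 0.05 (0.00762, limma adjusted p = 0.962), against 2.31% of all genes lower at that level and 0.0308% called. Cd163, Mrc1 and C1qc were above 0 there, at 0.05, 0.08 and 0.09, and left as deposited, without scaling between libraries, Csf1r was too (0.02).

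The test of whether the dam's effect differed between diets is the interaction. It was below 0 for 10 of 10 genes with a median of -0.36 (all genes 0.0056), where 49% of all genes were below 0, and 0 of 10 had an unadjusted p under 0.05. C1qc came closest (-0.47 ± 0.25, limma unadjusted p = 0.0774, adjusted p = 0.999). Without Lean-HFS 2 the interaction was below 0 for 8 of 10 (49.8% of all genes), with a median of -0.12. A difference between diets in the effect of the dam was thus not shown for any of the 10. The comparisons within HFS offspring and within Lean offspring share the Lean-HFS hearts, Lean-HFS 2 among them, so their values are set side by side and not as separate evidence.

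The diet after weaning gave no call. HFS against LF in offspring of Lean dams was above 0 for 10 of 10 genes (51.1% of all genes), with a median of 0.24, from 0.05 for C1qa to 0.36 for Mrc1, and 0 of 10 had an unadjusted p under 0.05. Without Lean-HFS 2, 4 of 10 were below 0 (50.1% of all genes) and the median was 0.03. In offspring of GDM dams 8 of 10 were below 0 (48.7% of all genes) with a median of -0.12, the lowest being Lyz2 at -0.39 ± 0.28 (limma adjusted p = 0.928), while C1qb and Mrc1, 2 of those 8, were above 0 in values left as deposited. In 1 of 10, Lyz2, all GDM-HFS libraries (125 to 131) lay below all GDM-LF libraries (144 to 185), which held for 5.76% of all genes. Averaged over dams 7 of 10 were above 0 (52.2% of all genes) with a median of 0.07, and the 3 that were below 0 (Adgre1, Lyz2 and C1qa) were above 0 as deposited. The direction turned without Lean-HFS 2, where 7 of 10 were below 0 (49.1% of all genes) and the median was -0.04. Lyz2 was then the 1 of 10 that was lower at an unadjusted p under 0.05, against 3.55% of all genes. Its log2 difference was -0.31 ± 0.11 (limma unadjusted p = 0.0128, adjusted p = 0.55). Limma called 0 of 12980 genes in each of the 3 diet comparisons and in the interaction, while 676, 723, 1028 and 391 genes had an unadjusted p under 0.05 in turn. On the recovered reads edgeR called 0 genes in each of these 4, and DESeq2 called 0, 7, 31 and 0 in turn with 0 of the 10 among them.

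Ranking the 4 groups by mean gave the same top group for all 10 genes, Lean-HFS, while GDM-HFS was the lowest for 7 genes. Most neighbours in these orders did not differ: of 30 neighbouring pairs, 27 had a difference of means within the larger SD of the pair. The exceptions were the step from Lean-LF to GDM-HFS in Tyrobp (7.37 against an SD of 1.72), from GDM-LF to GDM-HFS in Lyz2 (41.2 against 22.2) and from Lean-LF to GDM-LF in C1qb (6.77 against 5.73). The last of these had overlapping libraries. Without Lean-HFS 2, Lean-HFS was the top group for 6 of 10 genes, and Lean-LF for Tyrobp, Lyz2, C1qa and C1qb.

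Over the 12 libraries all 45 pairs of members had a positive Pearson r of log2 values, from 0.154 to 0.891 with a median of 0.67. A permutation test of r was passed by 15 pairs, and a permutation test of Spearman's rho by 4, at a Benjamini-Hochberg adjusted p under 0.05 over the 45 pairs. The permutations ran over all 12 libraries without regard to group, so a difference between groups that 2 genes share helps a pair to pass. Libraries share depth and tissue make-up between genes, so these values describe the libraries. Tyrobp, Cd68 and Adgre1, picked after their differences between dams were seen, were compared with the other 7 genes with and without Lean-HFS 2. Among the other 7 genes, r ran from 0.585 to 0.891 (median 0.738) over 12 libraries and from -0.117 to 0.721 (median 0.206) over 11. Among Tyrobp, Cd68 and Adgre1 it ran from 0.83 to 0.876 and from 0.774 to 0.841. In the 21 pairs between these 3 and the other 7, the median was 0.564 over 12 libraries and 0.346 over 11, so over 11 libraries the other 7 were no closer to each other than to the 3.

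The pair of Tyrobp and Adgre1 had r = 0.876 and rho = 0.909 (permutation test, adjusted p = 0.00675 and 0.00675), and r = 0.84 without the 2 libraries farthest from the median of Tyrobp. The permutations ignored group and scaled Tyrobp values separate the dams, so the relation was also read within each dam, without a test. There r was 0.789 over the 6 Lean and 0.701 over the 6 GDM libraries. For Tyrobp and Cd68 r was 0.847 over all 12, 0.544 within Lean and 0.777 within GDM hearts. Cd68 and Adgre1 had r = 0.83 over all 12, 0.743 within Lean and 0.61 within GDM hearts. Deviations from the 4 group means gave 0.643 to 0.836 for these 3 pairs (median 0.720), much as within the other 7 genes (0.467 to 0.882, median 0.705). In contrast, Tyrobp and Cd163 had r = 0.18 over all 12 and -0.23 without Lean-HFS 2.

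Closest among the remaining pairs were Lyz2 and C1qa (r = 0.891, rho = 0.783, adjusted permutation p = 0.00675 and 0.0459; 0.666 without the 2 farthest libraries) and Csf1r and C1qa (r = 0.88, and 0.617 without the 2 farthest libraries). C1qb and C1qc, neighbours on chromosome 5, had r = 0.848, and 0.331 without the 2 farthest libraries. Their r was 0.564 without Lean-HFS 2, 0.872 within Lean and 0.858 within GDM hearts. Cd163 and C1qa went from 0.743 to 0.218 in the same way, but had r = 0.453 without Lean-HFS 2, 0.768 within Lean and 0.646 within GDM hearts. Leaving out the farthest libraries narrows the range of values, so a lower r there does not show that a relation rests on them.

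**Figure D3:**
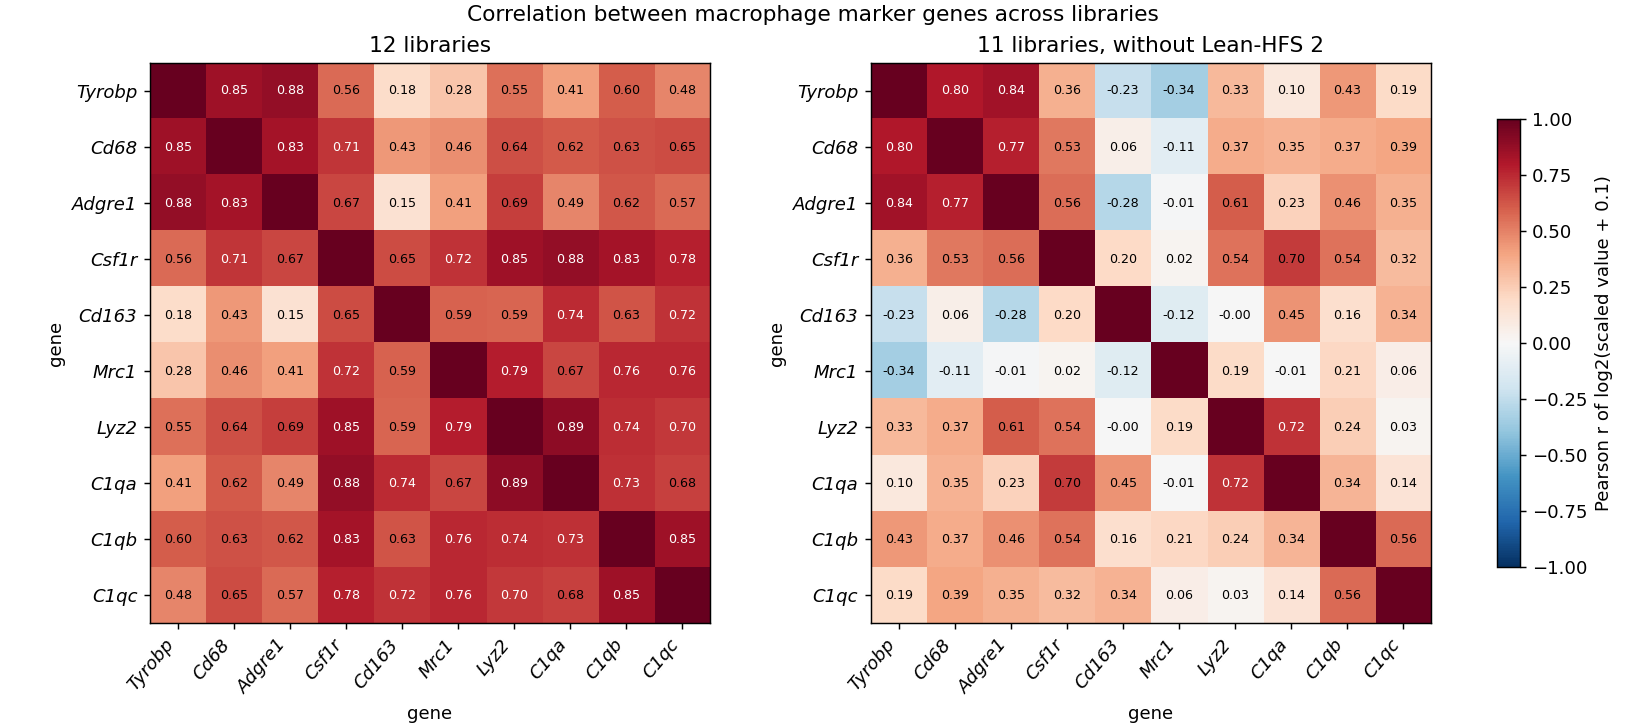
Pearson r of log2(scaled value + 0.1) between each pair of the 10 genes (both axes), over 12 libraries on the left and 11 on the right. Without Lean-HFS 2 the block of Tyrobp, Cd68 and Adgre1 keeps r of 0.774 to 0.841, and most other pairs lie nearer 0 than over 12.

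To find genes with a like pattern, each of 9751 other genes was correlated with the mean of the 10 standardised log2 values. The closest over 12 libraries were Zfp385a (r = 0.944), Tlr7 (0.940), Ecm1 (0.938), Ssc5d (0.937), Grn (0.934), Dab2 (0.933), Sptlc2 (0.926) and Pmp22 (0.923). Tlr7 encodes an endosomal receptor for single-stranded RNA, Grn the lysosomal protein progranulin and Dab2 an endocytic adaptor. All 8 were highest in Lean-HFS 2, which the ranking itself favours, because the mean of the 10 was far higher there than elsewhere. Tlr7 was at 66.4 in that library against 21.3 to 39.5 elsewhere. Ssc5d, a secreted scavenger-receptor family protein, was at 126 against 40.7 to 73.8. By deviations from group means the closest were Dab2 (0.966), Pmp22 (0.949), Chi3l1 (0.947), MGC105567 (0.946), Slc44a1 (0.942), F13a1 (0.942), Hs3st2 (0.941) and Zfp385a (0.941). F13a1, the coagulation factor XIII A chain made by resident macrophages, was at 252 in Lean-HFS 2 and 159 to 205 elsewhere. A ranking without Lean-HFS 2, chosen after the data were seen, gave other genes: Lpxn (0.968), Sphk2 (0.921), Cpa3 (0.917), Zdhhc18 (0.915), Iah1 (0.909), Prep (0.899), Clic2 (0.887) and Fkbp1a (0.887). Lpxn, leupaxin, is an adaptor of leukocyte adhesion, and Cpa3 is the carboxypeptidase of mast cells.

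Genes of the same cells and pathways were read from lists, of which some share genes (Trem2 and Itgb2 are in 2 lists each). No gene of any of these lists was called by limma in the comparison of dams, so counts at an unadjusted p under 0.05 are given, for which 5.48% of all tested genes were lower and 5.76% higher. Of the resident macrophage genes, 12 of 16 tested were below 0 and 5 were lower at that level (median -0.28). With Lean-HFS 2 left out, 1 was lower and 1 higher (median -0.19). Their sum over 12 libraries was 1679 to 2090 in Lean and 1572 to 1788 in GDM hearts. Trem2, the lipid-sensing receptor that signals through Tyrobp, was at 3.69 to 16.1 in Lean and 0 to 4.71 in GDM hearts, on 0 to 76 reads, at a log2 difference of -1.92 ± 0.76 (limma adjusted p = 0.386) that depends on the 0.1 added before the logarithm. Maf, a transcription factor of resident macrophages, was at 37.5 to 45.6 and 29.1 to 39.96 (log2 -0.34 ± 0.09, limma adjusted p = 0.211). Lyve1, the hyaluronan receptor of vessel-associated macrophages and lymphatic endothelium, was at 0.15 ± 0.16.

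Among monocyte and inflammatory genes, 10 of 15 were below 0 and 1 was lower at that level (median -0.29). With Lean-HFS 2 left out, 1 was lower and 1 higher (median -0.10). The gene that was lower over 12 libraries was Ly86, the MD-1 partner of the receptor RP105 on myeloid and B cells. It was at 17.6 to 42.7 in Lean and 10.1 to 31.2 in GDM hearts (log2 -0.74 ± 0.22, limma adjusted p = 0.242). Cd14, the lipopolysaccharide co-receptor of monocytes, was at -0.35 ± 0.24, and Ccl2, the monocyte chemoattractant, at -0.72 ± 0.42 (limma adjusted p = 0.547).

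Of the partners of Tyrobp in signalling, 13 of 14 were below 0 and 4 were lower at an unadjusted p under 0.05 (median -0.21, and 3 lower with a median of -0.17 without Lean-HFS 2). Lcp2, the adaptor SLP-76 that acts downstream of the kinase Syk, was at 63.3 to 90.4 in Lean and 47.8 to 60.2 in GDM hearts, without overlap (log2 -0.51 ± 0.09, limma adjusted p = 0.0706). Fcer1g, the Fc receptor gamma chain and a relative of Tyrobp in function, was at 27.6 to 54.0 and 21.0 to 32.8 (log2 -0.52 ± 0.15, limma adjusted p = 0.242). Ptpn6, the phosphatase SHP-1, was at -0.46 ± 0.16, and Syk itself at -0.22 ± 0.15 (limma adjusted p = 0.626). In the CSF1 receptor pathway 11 of 14 were below 0 and 2 were lower, Fgr and Pik3cd (-0.56 ± 0.20 and -0.22 ± 0.08), with a median of -0.14. Leaving out Lean-HFS 2, the median was -0.045, with 10 of 14 below 0 and 2 lower. The ligands Csf1 and Il34 were at -0.01 ± 0.14 and -0.13 ± 0.18, and Spi1, which encodes PU.1, was at -0.11 ± 0.13 (limma adjusted p = 0.799).

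In the rest of the complement pathway 13 of 17 genes were below 0, none was lower and 1 was higher at an unadjusted p under 0.05 (median -0.12, and -0.01 without Lean-HFS 2). The gene that was higher was Cd55, decay-accelerating factor, at 30.3 to 81.3 in Lean and 46.0 to 75.1 in GDM hearts (log2 0.41 ± 0.17, limma adjusted p = 0.398). C1r and C1s, the proteases that bind C1q, were at -0.19 ± 0.09 and -0.13 ± 0.11. Chemokines and their receptors had 11 of 12 below 0 and 4 lower (median -0.32, and 3 lower with -0.23 without Lean-HFS 2). Cxcl12, made by stromal cells, was at 494 to 744 in Lean and 343 to 494.5 in GDM hearts (log2 -0.47 ± 0.10, limma adjusted p = 0.102), and Ccl24 was at -0.65 ± 0.22. Cx3cr1, the fractalkine receptor of monocytes and resident macrophages, was at 3.04 to 14.6 and 3.43 to 4.63 (log2 -0.68 ± 0.30, limma adjusted p = 0.418), and its ligand Cx3cl1 at -0.26 ± 0.10. Phagosome and lysosome genes, which other cells of the heart also express, had 13 of 20 below 0 and a median of -0.10; 3 were lower, among them Cyba, a subunit of the phagocyte oxidase (-0.34 ± 0.13), and Ctsd (-0.13 ± 0.05), while Ctsl was higher (0.16 ± 0.07). The median was -0.026 without Lean-HFS 2, with 1 lower, Ctsd, and 1 higher.

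**Figure D4:**
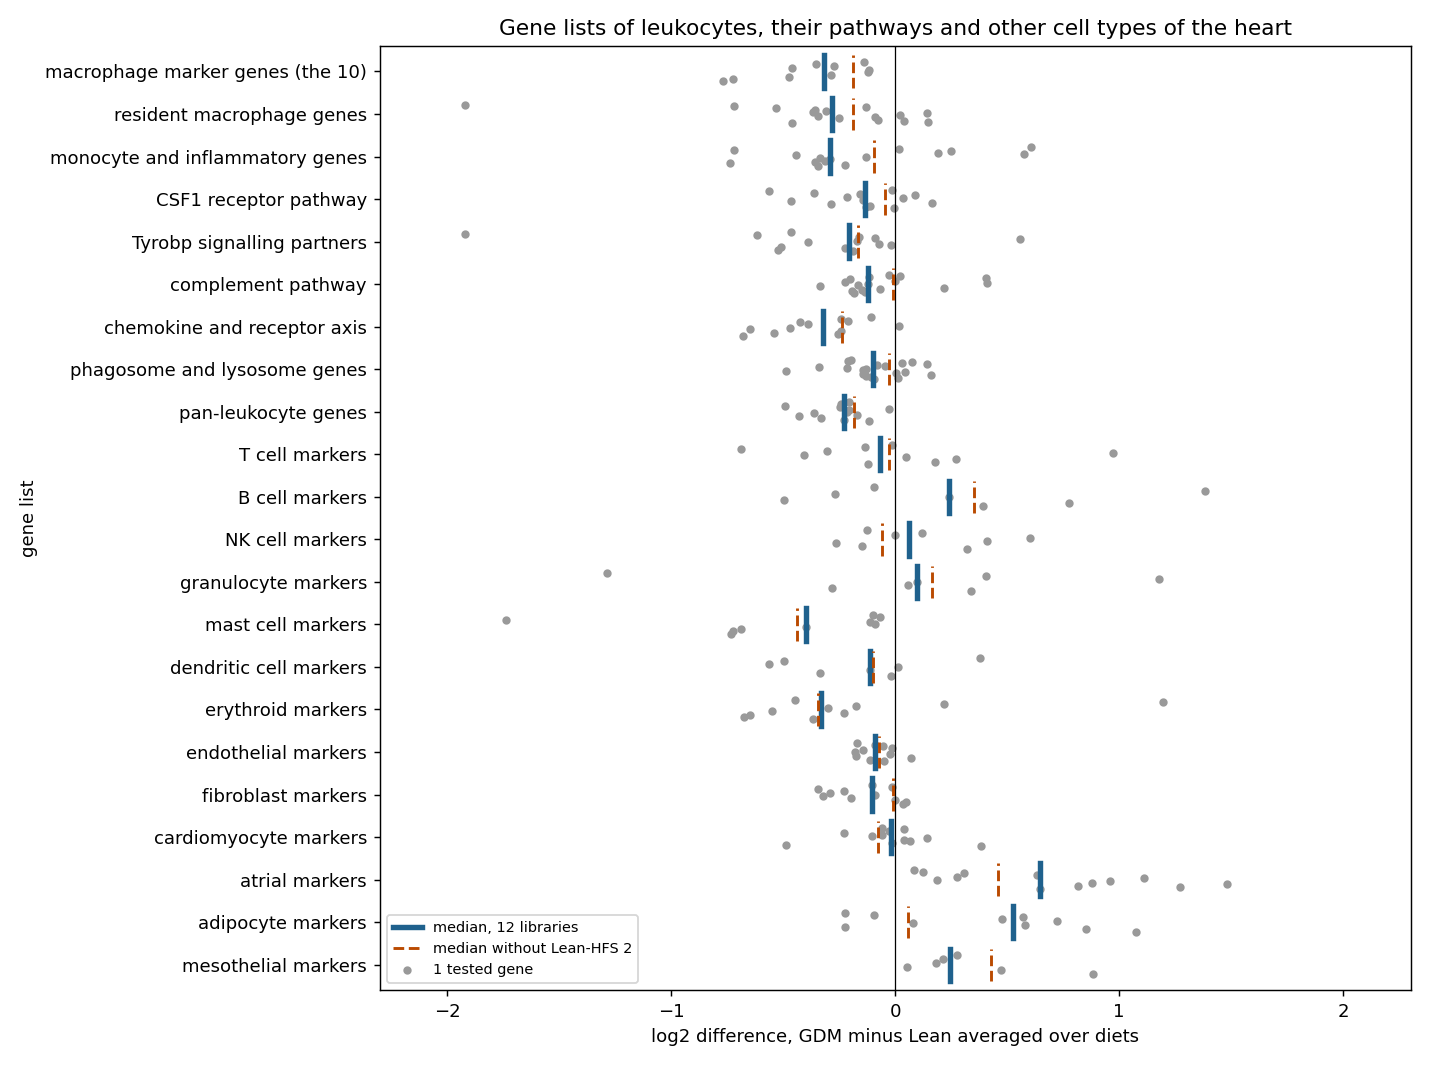
Log2 difference of GDM minus Lean averaged over diets (x axis) for each tested gene of each list (y axis, 1 grey point per gene), with the median over 12 libraries as a solid bar and that without Lean-HFS 2 as a dashed bar. Medians of the macrophage marker genes move from -0.32 to -0.19, and those of mast cell and erythroid markers stay at or below -0.33.

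Markers of other cells were counted in the same way, and limma called none of them between dams averaged over diets. Genes shared by all leukocytes had 13 of 13 below 0 and 5 lower at an unadjusted p under 0.05 (median -0.23, and 2 lower with -0.18 without Lean-HFS 2), with the actin bundler Lcp1 at -0.43 ± 0.11 (limma adjusted p = 0.172) and the common leukocyte antigen Ptprc at -0.12 ± 0.12. Mast cell markers had 9 of 9 below 0 and 3 lower, namely the proteases Cpa3, Tpsab1 and Cma1 (-0.73, -0.69 and -0.72), and their sum was 189 to 203 in Lean and 159 to 202 in GDM hearts. The mast cell counts were also 9 of 9 and 3 without Lean-HFS 2. Erythroid markers had 8 of 10 below 0 and 5 lower, the same counts as without Lean-HFS 2, and their sum was 5883 to 10381 in Lean and 2863 to 6772 in GDM hearts, after blood had been drawn by puncture of the heart. Endothelial markers had 10 of 11 below 0 and 2 lower (9 and 1 without Lean-HFS 2), and their sum was 4563 to 5081 in Lean and 4231 to 4993 in GDM hearts. Fibroblast markers had 9 of 11 below 0 and 3 lower, the matrix genes Dpt, Lum and Dcn (6 and 1 without Lean-HFS 2), and dendritic cell markers had 5 of 7 below 0 and none lower. Granulocyte markers had 2 of 7 below 0 and 1 higher, Padi4 (1.18 ± 0.27, limma adjusted p = 0.152), with a sum of 7.64 to 17.3 in Lean and 12.8 to 19.9 in GDM hearts. Atrial markers were above 0 in 13 of 13 with 3 higher, and their sum was 7745 to 12945 in Lean and 5882 to 31752 in GDM hearts. The part of blood content and of the amount of atrium in the macrophage values was not tested. T cell and NK cell markers had 0 genes at that level in either direction, with 6 of 10 and 3 of 8 below 0. Markers of B cells, cardiomyocytes, adipocytes and mesothelium also had 0, with 3 of 7, 7 of 12, 3 of 10 and 0 of 6 below 0. Their medians were 0.24, -0.02, 0.53 and 0.25 in turn.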

How the data were processed

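RNA from 12 whole rat hearts was depleted of ribosomal RNA and sequenced from strand-marking libraries in pairs of 100 bp reads, per the labels' protocols. Alignment was to Rnor_6.0 with STAR 2.5.1b, per the labels' protocols. Other tools listed in the submitters' processing notes are HOMER 4.9, edgeR, FastQC and Trim Galore. The deposited table holds a normalised read signal per gene model. Per its file name this is FPKM, but the deposited signal values are whole reads times a constant per library (0.184 to 0.262) and are not divided by length. Of the values, 99.99% were whole once divided by that constant (tolerance 0.1 read). The rule that assigned reads to gene models is not stated in those sources.

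Libraries were then scaled by median-of-ratios factors of 0.890 to 1.15. Models with a mean of at least 0.5 were fitted in limma 3.58.1 (R 4.3.3) on log2(scaled value + 0.1), with 4 group means, a variance trend and Benjamini-Hochberg adjustment over 12980 models, at a two-sided threshold of 0.05. For genes with few reads, differences on this scale depend on the 0.1 added. They can be understated, or overstated where only some libraries have 0 reads. The fit was tested on simulated data. Alternatives were edgeR 4.0.16 and DESeq2 1.42.0 on the recovered reads, other filters and pseudocounts, values as deposited, a replicate block and leaving out each library. Permutation tests used scipy 1.17.1. The members and gene lists were chosen with earlier results of these data known. Named genes were all 10 members, up to 3 tested genes per list with the smallest p between dams, the first 3 of each list and the 8 genes most like the members by each measure; not all of these are printed.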

Additional observations from a re-analysis of the deposited data

Results flagged for a closer look

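In the 6 Lean libraries, Lean-HFS 2 lay farther from the others than a test for a single outlying sample (Dixon, 95% level) allows for 6 of the 10 genes. Csf1r was at 278.9 scaled reads there and at 159 to 179 in the other Lean libraries. Mrc1 was at 350.2 against 169 to 220.3, and Lyz2, the farthest out in fold, at 411.6 against 144 to 216. The C1q genes were at 87.18 for C1qa (41.4 to 57.1 in the others), 91.84 for C1qb (47.1 to 58.5) and 99.67 for C1qc (52.5 to 68.4). Tyrobp, Cd68, Adgre1 and Cd163 were also highest in this library but within the limit. Such a test marks about 1 in 20 groups by chance. Here 20 groups were examined (10 genes in Lean and in GDM libraries), and none of the GDM groups was marked. All 6 marks came from Lean-HFS 2, in genes that were high together there, so they are not 6 separate events. The share of all tested genes that the same test would mark was not counted.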

How the results depend on the processing

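Depth limits Tyrobp and Cd68 most (38 to 137 reads per library), and 3 libraries per group limit all differences. Of the 10 genes, 0 passed the test between dams in any alternative run except DESeq2, which called 1 (Tyrobp). On the recovered reads DESeq2 called 17 genes between dams in LF offspring, 47 in HFS offspring and 154 averaged over diets, and 7 for diet in offspring of GDM dams and 31 averaged over dams; edgeR called 4, 2, 8, 0 and 0. Left as deposited, all genes shifted by 0.11 and 13 were called between dams on average. Signs turned there for Csf1r between dams in LF offspring (0.021), for Mrc1 (0.078) and C1qb (0.0088) for diet in offspring of GDM dams, and for Adgre1 (0.055), Lyz2 (0.020) and C1qa (0.042) for diet averaged over dams. The cause of these changes was not tested beyond the scaling itself. Libraries of equal replicate number were no more alike than others (correlation of deviations -0.098 to 0.116 for equal numbers and -0.132 to 0.200 for others). With 3 libraries per group this cannot exclude a pairing or a shared batch. With the replicate number as a block, 5, 3 and 10 genes were called between dams in LF, HFS and averaged, and 1 for diet in offspring of GDM dams.

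Leaving out each library in turn gave 2 to 6 calls between dams in LF, 2 to 4 in HFS and 6 to 20 averaged, and 0 to 3 for diet in offspring of Lean dams and 0 to 1 in those of GDM dams. The median of the 10 ran from -0.64 to -0.23 between dams in HFS and from -0.48 to -0.12 for the interaction, each nearest 0 without Lean-HFS 2. Between dams signs turned for Mrc1 averaged (-0.22 to 0.022), and for Cd163 (-0.071 to 0.20) and Csf1r (-0.19 to 0.082) in LF. For diet averaged over dams the ranges were -0.11 to 0.049 for Adgre1, -0.21 to 0.055 for C1qa, -0.066 to 0.15 for C1qb, -0.0020 to 0.19 for C1qc, -0.021 to 0.14 for Cd163, -0.066 to 0.13 for Csf1r, -0.31 to 0.055 for Lyz2 and -0.026 to 0.18 for Tyrobp. In offspring of GDM dams they were -0.31 to 0.015 for C1qa, -0.30 to 0.024 for C1qb, -0.25 to 0.017 for Cd163, -0.11 to 0.36 for Cd68, -0.11 to 0.095 for Mrc1 and -0.14 to 0.20 for Tyrobp. In offspring of Lean dams they were -0.26 to 0.27 for C1qa, -0.046 to 0.38 for C1qb, -0.22 to 0.51 for Lyz2 and -0.046 to 0.31 for Tyrobp. For the interaction they were -0.43 to 0.10 for C1qa, -0.48 to 0.056 for Cd68 and -0.26 to 0.11 for Tyrobp.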
